A study of Mus musculus with 6 samples.

Results

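The 8 genes described here handle zinc in mouse liver, and they were chosen by symbol from the 18720 rows of the deposited tables. They are the metallothionein genes Mt1 and Mt2, the zinc-sensing transcription factor gene Mtf1, the exporter genes Slc30a1 and Slc30a10, and the importer genes Slc39a5, Slc39a8 and Slc39a14. Each of the 8 had 1 row, and all 8 passed the filter on low values (a mean of 10 or more). The R159 group was male C57BL/6 mice aged 1 year, kept on a high-fat diet and injected intraperitoneally with R159, a compound known here by its code name. The vehicle group was of the same sex, strain, age and diet and received vehicle injections. Both were injected 2 times a week for 12 weeks. Each group had 3 liver libraries. Both groups ate the high-fat diet, so no library here shows the zinc genes on another diet. The labels do not state that each library came from a separate animal, and p-values measure the spread between these libraries, which may be technical in part.

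Metallothioneins are small, cysteine-rich proteins that bind zinc and copper in the cytosol. When free zinc rises, the transcription factor MTF-1 binds metal response elements and raises transcription of the metallothionein genes and of Slc30a1. SLC30 (ZnT) proteins carry zinc out of the cytosol, into vesicles or out of the cell, and SLC39 (ZIP) proteins carry it in. In liver, metallothionein and ZIP14 are also known to respond to glucocorticoids or to interleukin-6, which signals through gp130, the receptor subunit named in the study's title.

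Of the 8 genes, 1 fell and 0 rose in R159 livers. Slc30a1 was the one that fell, to 0.557 of the vehicle mean. Mt1 and Mt2 spread several-fold among libraries within each group and gave no call, and Mtf1 lay just outside the threshold. The test was limma on log2(value + 1) over 16594 genes, with Benjamini-Hochberg adjusted p under 0.05 as the call. Over all genes tested, 14.2% were called lower and 12.8% higher, 27% in all. The 1 of 8 called lower is close to the 14.2% called lower among all genes, and 0 of 8 were called higher. Fold changes are log2 differences, R159 minus vehicle, with SE, and the median over all genes tested was 0.00069.

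The libraries differed in ways that touch these genes. Estimated depth was 51.3 to 55.7 M reads in R159 libraries, against 66.0 to 76.7 M in vehicle libraries. Long transcripts tended to be lower in R159 and short ones higher: over 11027 coding genes with a mean of 100 or more, Spearman's rho between log2 fold change and length was -0.501, a value across genes and not across replicates. Within single libraries the rho of deviation on length ran from -0.594 to 0.0026 among R159 libraries and from 0.338 to 0.509 among vehicle libraries. The 8 transcripts span 511 to 7631 nt, the longest principal coding transcript of each gene, so each result below stands beside that of coding genes within 1.2 times its length. The share of mitochondrial genes in the summed values was 8.42% to 13.6% in R159 and 5.01% to 7.43% in vehicle libraries, without overlap, and its part in the results below was not tested. R159 replicate 2 was least like the vehicle libraries (median r 0.917, across genes), with 0.937 and 0.938 for R159 replicates 1 and 3. Among themselves the R159 libraries had a median r of 0.941 to 0.946, below the 0.980 to 0.984 of the vehicle libraries. The defining hepatocyte markers Alb, Apoa1, Ttr, Cps1, Cyp2e1 and Hnf4a were all present. Their summed values, mostly Alb, were 4297660 to 7054940 in R159 and 3541090 to 5399490 in vehicle libraries. They did not move together: Hnf4a was called lower in R159 (log2 fold change -0.67, limma adjusted p = 0.0382) and no other was called. Ttr (0.78) was higher in R159 without overlap, and Apoa1 (1.36) and Cps1 (-0.48) overlapped. With the length trend removed, none of these markers was called, and Hnf4a stood at -0.31 (limma adjusted p = 0.183). On that scale Ttr was at 0.30, Apoa1 at 0.76 and Cps1 at -0.015, so these differences between markers depended on the length trend in part.

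**Figure D1:**
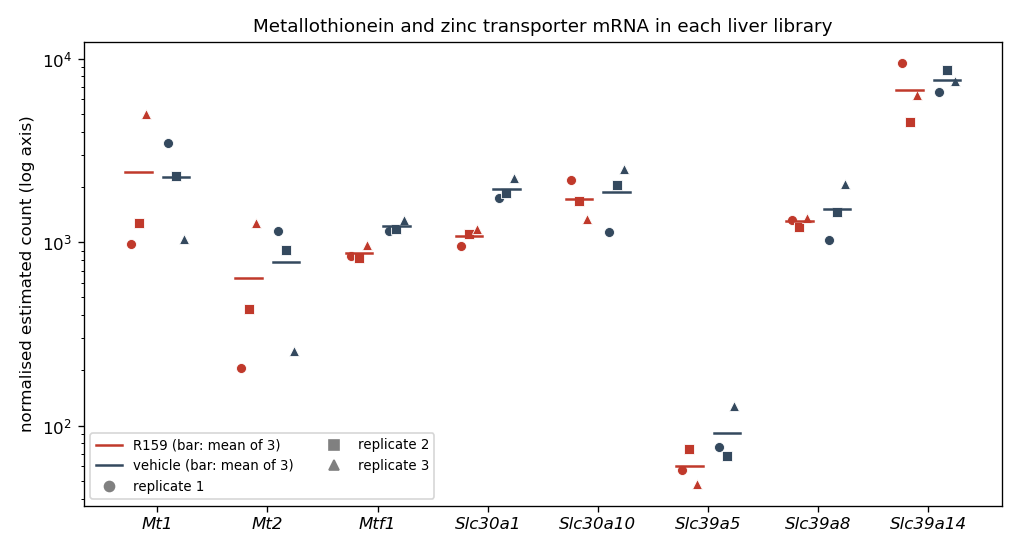
Normalised estimated counts on a log axis for each of the 8 genes, 1 point per library, R159 left of vehicle, with a bar at the mean of 3. The groups separate for Slc30a1 and Mtf1, both lower in R159, and overlap for the other 6 genes, with the widest spread in Mt1 and Mt2.

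Mt1 encodes metallothionein-1, an abundant zinc-binding protein of liver. Its normalised estimated counts were 972, 1272 and 5015 in R159 replicates 1 to 3, against 3467, 2284 and 1034 in vehicle replicates 1 to 3. The groups overlapped fully, since the R159 group held both the highest and the lowest of the 6 libraries. The means were 2419.9 ± 2253 in R159 and 2262 ± 1217 in vehicle (SD, n = 3 each). The log2 fold change was -0.13 (SE 0.61, limma adjusted p = 0.888), with a 95% confidence interval from -1.50 to 1.24. The linear mean was higher in R159 and the log2 mean lower, because 1 R159 library, replicate 3, was high.

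Mt2 encodes metallothionein-2, a close relative whose gene lies beside Mt1 on chromosome 8. Its values were 205, 433 and 1268 in R159 replicates 1 to 3, against 1157, 912 and 255 in vehicle replicates 1 to 3. Here too the R159 group held the highest and the lowest library, and the 6 libraries stood in the same order for both genes. The means were 635 ± 559.7 in R159 and 775 ± 466 in vehicle (SD, n = 3 each), with a log2 fold change of -0.42 (SE 0.69, limma adjusted p = 0.678, 95% confidence interval -1.98 to 1.15). Before correction for transcript length, both intervals reach past 1 on the log2 scale in either direction. Sizeable changes of either sign were therefore not resolved with these libraries on that scale.

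The shared order of Mt1 and Mt2 ran across the groups and not between them. From low to high it was R159 replicate 1, vehicle replicate 3, R159 replicate 2, vehicle replicate 2, vehicle replicate 1 and R159 replicate 3. The highest library exceeded the lowest by 5.16 times in R159 and 3.35 times in vehicle for Mt1. For Mt2 these ratios were 6.18 in R159 and 4.53 in vehicle. Mt1 was above Mt2 in every library, with a ratio of values of 2.94 to 4.74 in R159 and 2.50 to 4.05 in vehicle libraries. On the log2 scale Pearson's r between Mt1 and Mt2 was 0.957 over the 6 libraries, given as a description. The within-group SD on that scale was 1.09 for Mt1 and 1.25 for Mt2, above that of 93.1% and 94.9% of all tested genes. Exact 50-base stretches of the Mt1 and Mt2 transcripts occurred in no other annotated gene (0 of 500 and 0 of 462), so reads of 50 bases without mismatches can be told apart. Mt2 overlaps Gm45774 on the other strand, which had values of 8.75 to 115 in R159 and 5.16 to 46.7 in vehicle libraries. Whether counting used strand is not given in the sources used here.

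**Figure D2:**
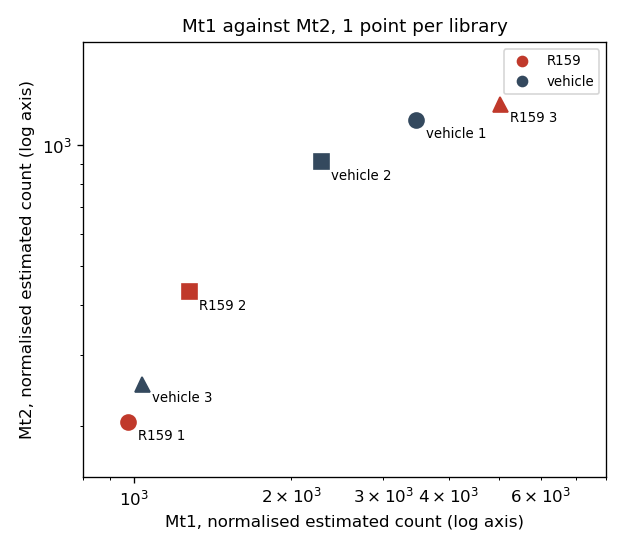
Mt1 on the x axis against Mt2 on the y axis, normalised estimated counts on log axes, 1 labelled point per library. The points lie on 1 rising line along which the R159 and vehicle libraries are intermixed, from R159 replicate 1 (972 and 205) to R159 replicate 3 (5015 and 1268).

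Because Mt1 and Mt2 varied together, the sequence before each annotated start is shown with the core of the metal response element, the site known for MTF-1. The search was for TGCACNC or TGCGCNC on both strands, counting overlapping matches, in RefSeq windows on GRCm38.p6 from 250 bases before to 50 bases after the start. The deposited tables were made on mm39, so these coordinates belong to the sequence table alone. Capitals mark the matches within the 250 bases before the start, both genes on the plus strand. The Mt1 stretch is chr8:94178839-94179088 and the Mt2 stretch is chr8:94172368-94172617.
Mt1: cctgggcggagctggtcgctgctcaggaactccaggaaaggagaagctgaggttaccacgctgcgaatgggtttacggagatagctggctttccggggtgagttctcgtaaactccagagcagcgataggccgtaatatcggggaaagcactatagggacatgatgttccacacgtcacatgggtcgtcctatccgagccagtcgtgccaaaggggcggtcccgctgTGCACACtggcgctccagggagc
Mt2: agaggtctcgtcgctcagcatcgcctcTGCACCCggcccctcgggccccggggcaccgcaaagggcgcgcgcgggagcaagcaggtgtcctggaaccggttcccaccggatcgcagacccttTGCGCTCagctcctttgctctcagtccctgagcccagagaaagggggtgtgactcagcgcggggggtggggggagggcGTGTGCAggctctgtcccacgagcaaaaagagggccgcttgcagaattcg

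The Mt1 window held 3 matches, beginning at -23, 3 and 21 from the start, and the Mt2 window held 4, beginning at -223, -128, -50 and 5. Of all 32851 promoter windows, 25.7% held at least 1 match, 1.97% at least 3 and 0.517% at least 4. In the annotated transcripts of GENCODE vM21 the letters TATAAA first occur at base 129 of the Mt1 transcript of 549 nt and at base 90 of the Mt2 transcript of 511 nt, with 4 and 3 core matches before them, so part of this proximal sequence falls after the annotated starts. Windows were found for 7 of the 8 genes. The window of Mtf1 had 0 matches and that of Slc30a10 had 3. A match is a run of letters, and binding was not measured.

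The metallothionein transcripts are short, 549 nt for Mt1 and 511 nt for Mt2, and genes of such length were mostly higher in R159. Of 156 coding genes with transcripts of 458 to 659 nt, 61.5% were called higher in R159, with a median log2 fold change of 1.06. In that class 7.69% of genes had a fold change below the -0.13 of Mt1. For Mt2 the class held 136 coding genes (426 to 613 nt), with 62.5% called higher, a median of 1.12 and 5.15% below the -0.42 of Mt2. With the length trend removed, the log2 fold change was -1.26 for Mt1 (SE 0.61, limma adjusted p = 0.182) and -1.60 for Mt2 (SE 0.67, limma adjusted p = 0.126). The 95% confidence intervals, not adjusted for the number of genes, were -2.66 to 0.13 for Mt1 and -3.12 to -0.08 for Mt2. Neither gene was called, nor was any other of the 8 genes on that scale, where 8.15% of genes were called lower and 9.95% higher.

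Mtf1 encodes MTF-1, the zinc sensor that drives metallothionein transcription. Its values were 844, 815 and 962 in R159 replicates 1 to 3, against 1148, 1179.7 and 1327 in vehicle replicates 1 to 3. Every R159 library lay below every vehicle library, and the spread within groups was small (within-group SD 0.12 on the log2 scale, and 7% of tested genes had a smaller one). The means were 874 ± 77.9 in R159 and 1218 ± 95.3 in vehicle (SD, n = 3 each), with a log2 fold change of -0.48 (SE 0.16, limma adjusted p = 0.051, 95% confidence interval -0.84 to -0.12). Groups that did not overlap were common, 46.2% over all genes tested and 23.6% with R159 lower, and 2 of the 8 genes, Mtf1 and Slc30a1, were among them. The Mtf1 transcript is long, 7631 nt, and among 1006 coding genes of like length 37.7% were called lower, with a median log2 fold change of -0.56. After removal of the length trend Mtf1 gave 0.04 (SE 0.17, limma adjusted p = 0.881). Mtf1 overlaps 1110065P20Rik on the other strand, which went the opposite way, with 699 to 1430.5 in R159 and 488 to 499.9 in vehicle libraries.

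Slc30a1 encodes ZnT1, the zinc exporter of the plasma membrane and a known target of MTF-1. Its values were 953, 1114 and 1173 in R159 replicates 1 to 3, against 1730.4, 1848 and 2238 in vehicle replicates 1 to 3. The 3 R159 libraries all lay below the 3 vehicle libraries, with a gap wider than the range of the R159 group. Slc30a1 fell to 1080.0 ± 114 in R159, against 1939 ± 266 in vehicle (SD, n = 3 each), a ratio of means of 0.557. The log2 fold change was -0.84 (SE 0.17, limma adjusted p = 0.00889, 95% confidence interval -1.22 to -0.46). In whole liver, fewer cells of a type and less RNA per cell cannot be told apart. Over all libraries the order differed from that of Mt1 and Mt2: R159 replicate 3 had the most Mt1 of all libraries, and its Slc30a1 value stayed in the low group. Within R159 the order was the same, with Slc30a1, Mt1 and Mt2 all rising from replicate 1 to 3. In vehicle it was reversed, Slc30a1 rising and Mt1 and Mt2 falling from replicate 1 to 3.

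The call of Slc30a1 was kept without each library in turn, without R159 replicate 2 too (-0.87, limma adjusted p = 0.0199), and it ended with the length trend removed (-0.40, SE 0.17, limma adjusted p = 0.131, 95% confidence interval -0.79 to -0.02). Its transcript has 5244 nt. Calls to the lower side made up 30.1% of 2116 coding genes within 1.2 times this length. Their median was -0.44 on the log2 scale, and 23.2% of them lay below the -0.84 of Slc30a1. The overlapping gene on the other strand, 1700034H15Rik, had at most 29.9 in R159 and 9.33 in vehicle libraries, small beside Slc30a1. Among marker lists, 5 of 6 erythroid genes were called higher, and 1 of them, Hbb-bt, with the length trend removed (summed values 40622 to 60022 in R159, and 12936 to 21867 in vehicle libraries). Of 6 Kupffer cell and macrophage genes Adgre1 (-1.77) and Csf1r (-0.98) fell. Cd68 (-0.69), Clec4f (0.20), Vsig4 (0.25) and Timd4 (2.09) of that list were not called, and the groups of Timd4 did not overlap, R159 being higher. With the length trend removed Adgre1 and Cd68 were called lower and Csf1r was not (limma adjusted p = 0.0661). The summed values of the list were 6702 to 9213 in R159 and 8129 to 13135 in vehicle libraries. No gene of these 2 lists was at 0 in any library, and their part in the Slc30a1 result was not tested.

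The sequence before the start of Slc30a1 is shown because this gene gave the one call among the 8. It is chr1:191906531-191906780 on the plus strand of GRCm38.p6, from RefSeq, with the core match before the start in capitals, here on the opposite strand.
Slc30a1: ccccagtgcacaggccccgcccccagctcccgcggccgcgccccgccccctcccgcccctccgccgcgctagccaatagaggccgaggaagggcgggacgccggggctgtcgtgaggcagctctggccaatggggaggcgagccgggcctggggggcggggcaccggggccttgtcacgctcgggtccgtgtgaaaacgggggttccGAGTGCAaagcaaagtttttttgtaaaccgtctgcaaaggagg
The window held 2 matches, beginning at -43 and 31 from the start, and 7.11% of all promoter windows held at least 2.

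**Figure D3:**
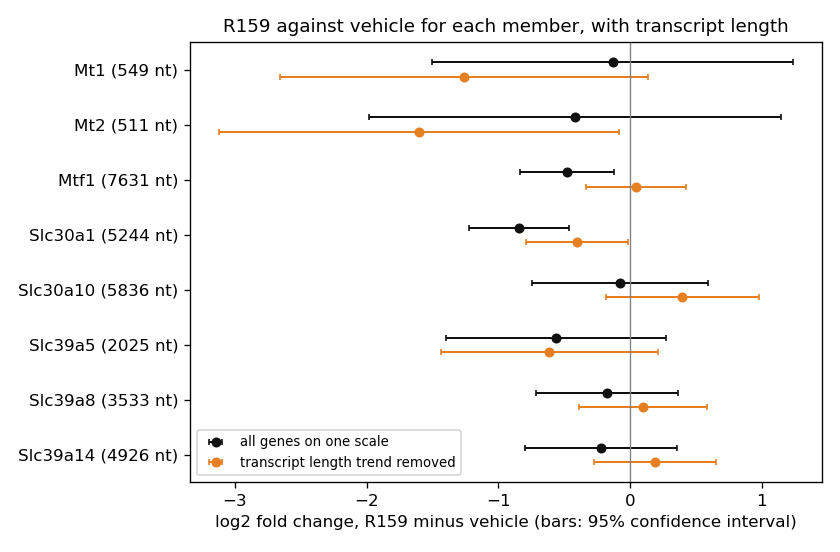
Log2 fold change of R159 minus vehicle for the 8 genes, with 95% confidence intervals, on the scale of all genes (black) and after removal of the transcript length trend (orange); transcript length is given beside each name. Slc30a1 moves from -0.84 to -0.40 and Mtf1 from -0.48 to 0.04, while the short transcripts Mt1 and Mt2 move down, to -1.26 and -1.60, with the widest intervals.

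Slc30a10 encodes ZnT10, which exports manganese from hepatocytes. Its values were 2170.4, 1669 and 1344 in R159 replicates 1 to 3, against 1131, 2040.3 and 2492 in vehicle replicates 1 to 3. The groups overlapped, and vehicle replicate 1 was the lowest library. The log2 fold change was -0.08 (SE 0.30, limma adjusted p = 0.86, 95% confidence interval -0.75 to 0.59). It was 0.40 with the length trend removed (limma adjusted p = 0.307). Coding genes within 1.2 times its length had a median of -0.49, and 73.6% of them lay below Slc30a10. Slc30a10 overlaps Gm2061, which had 60.7 to 113 in R159 and 30.8 to 74.1 in vehicle libraries.

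Slc39a14 encodes ZIP14, an importer of zinc, manganese and iron that interleukin-6 is known to induce in liver. Its values were 9414, 4536 and 6374 in R159 replicates 1 to 3, against 6573, 8725 and 7553 in vehicle replicates 1 to 3. R159 libraries held both the highest and the lowest value, and the vehicle libraries lay between them. The log2 fold change was -0.22 (SE 0.26, limma adjusted p = 0.537, 95% confidence interval -0.80 to 0.35). It was 0.19 with the length trend removed (limma adjusted p = 0.544). The class of like length had a median of -0.40, with 61.6% of its genes below Slc39a14.

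Slc39a8 encodes ZIP8, a relative of ZIP14 that takes manganese and zinc into hepatocytes. Its values were 1328, 1208 and 1356 in R159 replicates 1 to 3, against 1033, 1459 and 2075 in vehicle replicates 1 to 3. The 3 R159 libraries were close to each other and lay within the vehicle range. The log2 fold change was -0.17 (SE 0.24, limma adjusted p = 0.611, 95% confidence interval -0.72 to 0.37). It was 0.10 with the length trend removed (limma adjusted p = 0.787). Genes of like length had a median of -0.26, and 56% of them had a lower fold change.

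Slc39a5 encodes ZIP5, an importer of the basolateral membrane in gut and pancreas that is also made in liver. It was the lowest of the 8, with 57.4, 74.8 and 47.8 in R159 replicates 1 to 3, against 76.4, 68.5 and 128 in vehicle replicates 1 to 3. The groups overlapped, R159 replicate 2 lying above vehicle replicate 2. The log2 fold change was -0.56 (SE 0.37, limma adjusted p = 0.281, 95% confidence interval -1.40 to 0.27), and it was -0.61 with the length trend removed (limma adjusted p = 0.264). Here the median of genes of like length was 0.034, and 14.1% of them lay below Slc39a5. Of 8 pancreatic acinar markers 4 were found, with summed values of 814 to 1646 in R159 and 398 to 699 in vehicle libraries, nearly all of it Cela1. The defining acinar gene Cpa1 was at 0 in all libraries but R159 replicate 3 (13.5).

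Per kilobase of transcript, Mt1 had the highest mean level of the 8 genes in both groups (4408 in R159 and 4120 in vehicle, normalised estimated counts per kb). Slc39a14 followed (1375 in R159 and 1546 in vehicle), then Mt2 (1243 in R159 and 1516 in vehicle). These 3 overlapped in their ranges over libraries in both groups, except that Mt1 exceeded Slc39a14 in every vehicle library. Slc39a8 came next (367 in R159 and 431 in vehicle), apart from Mt2 in R159 and overlapping it in vehicle. It overlapped with Slc30a10 (296 in R159 and 323 in vehicle) in both groups, and with Slc30a1 (206 in R159 and 370 in vehicle) in vehicle only. Slc30a1 ranked below Slc30a10 in R159, where its highest library lay below the lowest of Slc30a10, and above it by the mean in vehicle, where the 2 overlapped. Mtf1 (114 in R159 and 160 in vehicle) and Slc39a5 (29.6 in R159 and 45.0 in vehicle) were lowest, each apart from its neighbours. The lengths used are the annotated ones, 549 nt for Mt1 and 511 nt for Mt2, which hold TATAAA from bases 129 and 90. Transcripts that start further on would be shorter, with higher levels per kb. The order of Slc39a14 and Mt2, and the overlaps of Mt1 and Mt2 with other genes, are therefore not settled.

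The genes whose log2 values ran most like the mean of Mt1 and Mt2 over the 6 libraries, out of 13641 compared, were Trpc1, Cep89, Otulinl, Irf5 and Alox5ap, with Pearson's r of 0.973 to 0.982. None of these 5 was called (limma adjusted p = 0.741 to 0.919). Trpc1 was near the filter on low values, at 10.9 to 24.9 over the libraries. Cep89 ran only from 399 to 471, since r does not reflect the size of a change. Those most like Slc30a1 were Abcb6, Vcp, Gosr1, Csk and Apmap, with r of 0.994 to 0.999. Of these, limma called 4 lower in R159 and missed Csk (adjusted p = 0.0602). With 6 libraries many genes reach such values, and r is given as a description. The genes were chosen by r over these same libraries, which largely sets whether they are called. Their calls therefore support neither pattern.

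Several importers among the other zinc transporters fell. Of 19 genes listed, 18 were in the tables and 17 were tested, of which 6 fell and 1 rose, with a median log2 fold change of -0.49, beside 14.2% lower and 12.8% higher over all genes tested. Slc39a4, which encodes ZIP4, the main zinc importer of the gut, had 585, 1379 and 1572 in R159 replicates 1 to 3, against 3172, 3694 and 3483 in vehicle replicates 1 to 3. No R159 library reached the vehicle range (log2 fold change -1.67, SE 0.33, limma adjusted p = 0.00837). Slc39a9, which encodes ZIP9 of the Golgi and plasma membrane, fell to 1637 ± 130.0 in R159, against 3724 ± 513 in vehicle (log2 fold change -1.18, limma adjusted p = 0.0036). Slc39a11 fell to 1082 ± 40.4 in R159, against 2116 ± 57.9 in vehicle (-0.97, limma adjusted p = 0.00401). Slc39a7, which encodes ZIP7, the zinc release channel of the endoplasmic reticulum, fell to 2645 ± 362 in R159, against 5043 ± 946 in vehicle (-0.92, limma adjusted p = 0.00857).

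All 4 kept their call under each of the 14 alternatives tried. With the length trend removed they had log2 fold changes of -1.54 (Slc39a4), -0.74 (Slc39a9), -0.86 (Slc39a11) and -0.90 (Slc39a7). Slc30a7, which encodes the Golgi transporter ZnT7, and Slc39a10, an importer gene that MTF-1 is known to repress, fell too (log2 fold change -0.64, limma adjusted p = 0.0240 for Slc30a7, and -1.05, limma adjusted p = 0.0398 for Slc39a10). With the length trend removed neither was called (limma adjusted p = 0.523 for Slc30a7 and 0.187 for Slc39a10). Leaving out R159 replicate 2 or any 1 vehicle library also ended both calls, with limma adjusted p of 0.0501 to 0.0955 for Slc30a7 and 0.0701 to 0.150 for Slc39a10, and leaving out R159 replicate 3 ended that of Slc39a10 (0.0900). Without the eBayes trend both calls ended as well (limma adjusted p = 0.0532 for Slc30a7 and 0.0631 for Slc39a10). The 1 gene that rose was Slc39a2, and it and Slc30a7 were named after their values were seen. Slc39a2 encodes the plasma membrane importer ZIP2 and had 218, 106 and 112 in R159 replicates 1 to 3, against 38.2, 23.3 and 7.54 in vehicle replicates 1 to 3 (log2 fold change 2.78, SE 0.59, limma adjusted p = 0.0109, and 2.81 with the length trend removed), and it too was called under all 14 alternatives. Summed over the 18 genes, values were 18177 to 19049 in R159 and 26589 to 29848 in vehicle libraries. These sums are not corrected for transcript length and reflect mostly the genes of high value. With the length trend removed 4 genes of the list were called lower and 1 higher.

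**Figure D4:**
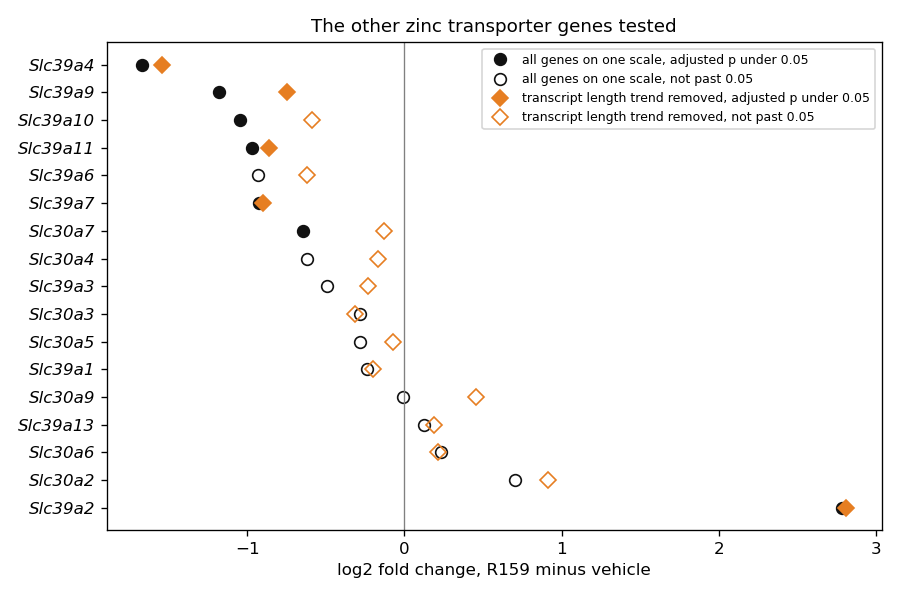
Log2 fold change of R159 minus vehicle for the 17 other zinc transporter genes tested, on the scale of all genes (circles) and with the length trend removed (diamonds); filled marks have an adjusted p under 0.05. Slc39a4, Slc39a9, Slc39a11 and Slc39a7 are filled and below 0 on both scales, and Slc39a2 is filled and above 0 on both.

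Lists of related genes held calls in both directions, and their counts are given beside the 27% called over all genes tested. Of 8 candidate MTF-1 targets 3 fell, Slc40a1 (-0.76), Tfrc (-0.67) and Slc39a10, and 1 rose, Hamp (1.79), whose groups overlapped (median log2 fold change of the list -0.26). Slc40a1 encodes the iron exporter ferroportin, Tfrc the transferrin receptor and Hamp hepcidin, so 3 of these 4 handle iron. With the length trend removed Slc40a1 alone of the 4 stayed lower (-0.52, limma adjusted p = 0.0396). On that scale Selenoh of the same list, not called before (0.05), was called lower too (-0.78, limma adjusted p = 0.0236). Leaving out 1 library ended the call of Slc40a1 without vehicle replicate 2 (limma adjusted p = 0.0602), that of Tfrc without R159 replicate 3 or any vehicle library (0.0553 to 0.0983), and that of Hamp without R159 replicate 2 or 3 or vehicle replicate 1 or 2 (0.0884 to 0.147).

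Of 15 copper genes 4 fell and 3 rose (median -0.18). Those of smallest p were Commd1 (1.06) and Cox17 (1.39), which rose, and Steap4 (-0.98) and Atp7b (-0.93), which fell. Cox17 encodes the copper chaperone of cytochrome c oxidase, and Atp7b the copper pump of hepatocytes. Commd1, Cox17 and Steap4 were called under all 14 alternatives. The length correction used the longest principal coding transcripts, 4508 nt for Commd1 and 3690 nt for Cox17. It raised their log2 fold changes to 1.43 and 1.68, and shorter transcripts of these genes were not examined. Atp7b was not called with the length trend removed (limma adjusted p = 0.0727) or without vehicle replicate 3 (limma adjusted p = 0.0541). Of 11 tested genes on a list of manganese and zinc enzymes 2 fell and 1 rose (median -0.098), a share like that of all genes. Not every gene on the list encodes such an enzyme. Tmprss6 (-0.90), a serine protease that restrains hepcidin and not a metal enzyme, fell and was called under all 14 alternatives. Alpl (-1.15), the zinc enzyme alkaline phosphatase, was called under 7 of the 14, and not with the length trend removed (limma adjusted p = 0.0597) nor without any 1 library other than vehicle replicate 3 (limma adjusted p = 0.0511 to 0.104). Arg1, the manganese enzyme arginase, rose (1.19, limma adjusted p = 0.0145) and was not called without vehicle replicate 1 (0.0588) or vehicle replicate 2 (0.0647).

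Of 17 genes on a list of glucocorticoid targets 4 rose and 4 fell (median 0.36). Among those that fell was Nr3c1 (-0.54, limma adjusted p = 0.0403), the gene of the glucocorticoid receptor itself. With the length trend removed Nr3c1 was not called (-0.04, limma adjusted p = 0.879). Tsc22d3 (1.42) and Hsd11b1 (1.06) rose, and Fkbp5 (-1.15) and Cdkn1a (-1.43) fell, and all 4 were called with the length trend removed as well. Hsd11b1 was not called without R159 replicate 2 or 3 or vehicle replicate 1 or 2 (limma adjusted p = 0.0554 to 0.0719). Of 21 interleukin-6 liver targets 4 rose and 2 fell (median 0.27), again a share like that of all genes. Saa3 (1.56) and Apcs (1.09) were higher, and Stat3 (-0.97) and Steap4 were lower. With the length trend removed the list held 1 gene called higher and 1 lower, and Saa3, Apcs and Stat3 were not called (limma adjusted p = 0.206, 0.37 and 0.0691). Apcs and Stat3 were also not called without vehicle replicate 2 (limma adjusted p = 0.0503 for Apcs and 0.0740 for Stat3) or vehicle replicate 3 (0.0566 for Apcs and 0.0612 for Stat3).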

How the data were processed

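Liver poly(A) RNA from 6 samples was turned into strand-specific libraries (random plus oligo(dT) priming) and read from both ends at 50 bases, per the labels' protocols. Tools named in the submitters' processing notes, with no role stated, are STAR 2.7.8a, cutadapt, FastQC 0.11.9, R 4.2.3 and DESeq2 with the version 3.5; the build is mm39. The sources used here do not name the counter or the annotation. The deposited values are a signal: gene counts, not all whole, that the authors divided by 1 factor per sample. Spacing of low values gave the worth of 1 read and so the depth. Of values under 200 reads, 67.8% to 76.1% were whole within 0.02 reads, too few for a count model.

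limma 3.58.1 (R 4.3.3; group as the one term, eBayes trend) was run on log2(value + 1) for genes with a mean of 10 or more; this scale understates changes of low genes. To remove the length trend, deviations of each library were smoothed by lowess (span 0.3) on log2 transcript length and the curve subtracted. Lengths came from GENCODE vM21, an annotation of another build, for 95.5% of genes. Further alternatives changed the normalization (trimmed mean of M values), pseudocount, filter, eBayes trend or replicate block, or left out 1 library. The code was tested on simulated data. The text names the 8 genes and up to 4 called genes of smallest p per related list. Slc30a7, Slc39a2, Selenoh, Nr3c1 and the marker genes fall outside this rule. The 5 genes most like Mt1 and Mt2 and the 5 most like Slc30a1 are named as well. Members and lists were chosen with earlier results of these data known. Figures used matplotlib 3.10.9 in Python 3.11.15.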

Additional observations from a re-analysis of the deposited data

How the results depend on the processing

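Of the 8 genes, 0 were called higher under all 14 alternatives, and Slc30a1 was called lower under 13 of them, with log2 fold changes of -0.92 to -0.40. The number of the 8 called lower was 1 in all but 2 alternatives: it was 0 with the length trend removed, and 2 with a mean filter of 50, where 13279 genes were tested and Mtf1 passed (adjusted p = 0.0420). Leaving out 1 library each gave 1 called lower and 0 higher. Mt1 was called under 0 alternatives, with -1.26 to 0.33 and a positive value in 3, and Mt2 under 0, with -1.60 to 0.20. Leaving out R159 replicate 3 gave -0.86 for Mt1 and -1.11 for Mt2, and leaving out R159 replicate 1 gave 0.33 and 0.20.

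Over all genes, the counts without 1 library ranged from 918 to 2516 higher and from 923 to 2909 lower, against 2125 and 2354 with all. They were lowest without vehicle replicate 2, and low without vehicle replicate 1 (1248 higher, 1252 lower) and vehicle replicate 3 (1066 higher, 1117 lower). Without the eBayes trend 1443 were lower, and with the length trend removed 1292. Genes called in the related lists numbered 32, ranged from 14 to 31 without 1 library, and were 19 without the eBayes trend and 19 with the length trend removed. Without the eBayes trend the calls of Tfrc (limma adjusted p = 0.0519), Hamp (0.115), Alpl (0.0912), Hsd11b1 (0.0620) and Stat3 (0.0620) ended. The cause of these changes was not tested.

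With the replicate block 1912 genes were higher and 2033 lower, and Slc30a1 stayed called (adjusted p = 0.0150). No pairing by replicate number is stated, and none was evident: deviations of same-numbered libraries correlated at -0.212, 0.0545 and 0.131, and 2 of 6 libraries correlated best with their own number. With 3 libraries a group these values cannot exclude a pairing. The block ended the call of Slc39a10 (adjusted p = 0.0634). With 3 libraries a group, changes of Mt1 and Mt2 within their wide intervals could not be resolved.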
